A study of Mus musculus with 11 samples.

Results

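The genes described here encode 10 chaperones and co-chaperones of the endoplasmic reticulum (ER) lumen, *Hspa5*, *Hyou1*, *Dnajb9*, *Dnajc3*, *Sdf2l1*, *Hsp90b1*, *Manf*, *Creld2*, *Calr* and *Canx*. They were picked by name as a functional group, with earlier results of these data known, from the 24849 genes of the deposited count table, and all 10 were found in it with 1 entry each. RNA was sequenced from AML12, an immortalized line of mouse hepatocytes, in 11 libraries of 3 groups: 4 libraries of AML12 KO cells, 3 of unmodified AML12 WT cells and 4 of AML12 KI cells. In the KO cells, *Txndc5*, which encodes a protein disulfide isomerase of the ER, had been cut with CRISPR/Cas9 and recombined with a puromycin resistance gene, and stable clones were selected with puromycin, whereas the labels call the genotype a knockdown. The KI cells are labelled as a TXNDC5 knockin, and the series text gives ROSA26, a safe-harbour locus, as the site from which the gene was to be overexpressed. KO and KI replicates are numbered 5, 6, 7 and 8, and the WT replicates 5-6 (a single library), 7 and 8. How many clones the KO and KI libraries came from, and whether replicates were separate cultures, is not given in the sources used here, so p-values measure only the spread between these libraries, which may be technical, and a difference between the lines and one between the clones behind them cannot be told apart.

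Proteins of the secretory pathway fold in the ER lumen, where hepatocytes make the plasma proteins in bulk. BiP, the product of *Hspa5*, binds unfolded chains in cycles that J-domain proteins start and nucleotide exchange factors end, GRP94 (*Hsp90b1*) acts later on selected clients, and the lectins calreticulin (*Calr*) and calnexin (*Canx*) hold glycoproteins while their disulfide bonds form. When unfolded protein accumulates, the sensors IRE1, PERK and ATF6 start the unfolded protein response (UPR), and the factors ATF6 and XBP1 raise many chaperone genes through a promoter element, the ER stress response element (ERSE).

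Promoters from 250 bases before to 50 bases after the transcription start were taken from RefSeq (GRCm38.p6), which held 8 of the 10 genes. Those of *Manf* and *Hyou1* were not used here. The ERSE was searched on both strands as CCAAT, 9 bases of any kind and CCACG, without mismatches. It was present in 6 of the 8 promoters, against 37 of the 27025 genes of the whole RefSeq set (0.137%), these 6 included. The element is known from chaperone genes, so its presence here is a description and not a test. The 7 matches are shown because 6 of these promoters hold this letter pattern and most others lack it. They have 12 bases on either side and run 5′ to 3′ on the strand of the gene. Capitals mark CCAAT and CCACG or, where the match lies on the other strand, their complements CGTGG and ATTGG:
*Hspa5* (chr2:34772013-34772055, + strand): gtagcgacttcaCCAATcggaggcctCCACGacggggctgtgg
*Hsp90b1*, distal match (chr10:86705626-86705668, - strand): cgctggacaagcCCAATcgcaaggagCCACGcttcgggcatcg
*Hsp90b1*, proximal match (chr10:86705521-86705563, - strand): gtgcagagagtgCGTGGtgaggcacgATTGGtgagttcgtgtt
*Dnajc3* (chr14:118937815-118937857, + strand): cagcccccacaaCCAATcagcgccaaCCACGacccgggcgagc
*Creld2* (chr15:88819508-88819550, + strand): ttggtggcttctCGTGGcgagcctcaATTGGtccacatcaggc
*Calr* (chr8:84847063-84847105, - strand): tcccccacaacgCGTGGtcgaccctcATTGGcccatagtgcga
*Canx* (chr11:50325788-50325830, - strand): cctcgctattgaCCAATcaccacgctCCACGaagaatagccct

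All 7 matches lie upstream of the RefSeq start, the nearest in *Hspa5* at 46 bases and the farthest in *Hsp90b1* at 193 bases from it. That of *Hspa5* lies inside the span that the GENCODE annotation gives the gene, which begins before the RefSeq start. The promoters of *Sdf2l1* and *Dnajb9* held CCAAT and CCACG, but at no place in this order with 9 bases between them. They are shown because *Sdf2l1* was the gene with the largest difference between KO and KI, and *Dnajb9* the only one that fell in the KO, with the 250 bases before the start and every CCAAT and CCACG of either strand in capitals:
*Sdf2l1* (chr16:17132384-17132633, - strand): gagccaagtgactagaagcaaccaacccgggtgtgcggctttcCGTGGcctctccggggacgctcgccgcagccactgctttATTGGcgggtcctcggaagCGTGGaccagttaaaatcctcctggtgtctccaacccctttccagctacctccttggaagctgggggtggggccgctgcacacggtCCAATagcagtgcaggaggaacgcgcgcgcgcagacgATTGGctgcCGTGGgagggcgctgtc
*Dnajb9* (chr12:44210069-44210318, - strand): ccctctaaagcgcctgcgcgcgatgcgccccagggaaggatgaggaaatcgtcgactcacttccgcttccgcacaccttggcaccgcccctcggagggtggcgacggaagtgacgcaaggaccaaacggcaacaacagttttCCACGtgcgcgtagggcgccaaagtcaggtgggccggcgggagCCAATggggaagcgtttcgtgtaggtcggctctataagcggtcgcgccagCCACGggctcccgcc

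A second arrangement, ERSE-II (ATTGG, 1 base, CCACG), was in 0 of the 8 promoters and in 12 of all 27025 genes (0.0444%). The XBP1 element TGACGTGG, whose last 5 letters are the complement of CCACG, was also in 0 of 8 (0.714% of all genes), and so was the ATF4-type element TGATGCAA (1.03%). These elements were searched as exact letters on both strands, so near forms were not counted. The *Hspa5* window, for example, holds tgacgtga, which differs from the XBP1 element in the last letter. Such matches describe letters in a window and not bound sites.

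Total counts were 30380360 to 38422243 in the KO, 29840366 to 30364098 in the WT and 32360709 to 35335070 in the KI libraries, and each of the 10 genes had at least 845 counts in every library. Levels are CPM, library-scaled counts with edgeR's TMM factors. The library composition differed between the groups: ribosomal protein genes took 6.76 to 9.09% of the counts in WT, 5.22 to 6.46% in KO and 5.20 to 5.93% in KI, and the most abundant newly assembled entry took 11.3 to 17.1%, 4.32 to 6.44% and 4.82 to 9.12%. *Txndc5* was at 10.2, 8.50, 12.9 and 9.39 CPM in the KO libraries, at 147, 138 and 143 CPM in WT and at 158, 180, 176 and 163 CPM in KI. It was 14.1-fold lower in KO than in WT (edgeR's quasi-likelihood F test, Benjamini-Hochberg adjusted p = 4.09e-08). In KI it was 1.18-fold above WT, which did not pass the test (edgeR, adjusted p = 0.136), so the overexpression given in the series text was not detected as a call. A transgene whose sequence differs from the annotated gene could go uncounted there, so this value does not show whether the construct was expressed, and "KI" below means the libraries labelled so. All 11 hepatocyte markers were above 3 counts in at least 1 library of each group. Their summed level was 9914 to 11816 CPM in KO, 7786 to 9814 in WT and 8704 to 10272 in KI. These sums cover opposite moves. In KO against WT, 6 of the 11 rose, with *Apoa1* by 3.77 and *Cps1* by 3.19 on the log2 scale. Another 3 fell, with *Apoe* by 1.34 and *Trf* by 1.16, and 2 did not pass the test. *Cps1* was near the floor in WT and KI, at means of 0.248 and 0.038 CPM. In KI against WT, 3 of 10 tested rose and 3 fell. Of the markers of other liver cells, the macrophage list summed to 1.32 to 2.21 CPM in KO, 6.73 to 9.20 in WT and 2.52 to 5.66 in KI with *Adgre1* at 0. The stellate list (*Lrat* at 0) and the endothelial list (*Tek* at 0) stayed under 1 CPM. The cholangiocyte list summed to 1086 to 1221 CPM in KO, 861 to 1091 in WT and 709 to 974 in KI with *Epcam* at 0. *Krt19* made up most of this sum and rose in KO against WT, from 769.5 to 1097 CPM. *Krt7* fell from 177 to 17.0 CPM (log2 fold change -3.40, edgeR adjusted p = 2.32e-08), and *Sox9* fell by 0.47. The part of these differences in the results below was not tested.

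The 10 chaperone genes together took a larger part of the KO libraries. They held 0.720, 0.708, 0.689 and 0.669% of all counts in KO 5, 6, 7 and 8, 0.365, 0.371 and 0.376% in WT 5-6, 7 and 8, and 0.356, 0.341, 0.357 and 0.354% in KI 5, 6, 7 and 8. On this scale the KO libraries lay above all others, and KI lay just below WT. Without *Hspa5*, the most abundant of the 10, the KO share was still 0.398 to 0.410%. The other groups then overlapped, at 0.215 to 0.243% in WT and 0.235 to 0.257% in KI. These are parts of the unscaled counts. The TMM factors, not applied here, were 1.05 to 1.13 in KO, 0.744 to 0.947 in WT and 1.02 to 1.12 in KI. Distances between the groups therefore differ from those in CPM below.

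Gene by gene, 7 of the 10 rose in KO against WT, 1 fell (*Dnajb9*) and 2 did not pass the test (*Hsp90b1* and *Canx*). Among all 13359 genes tested, 55.1% passed, 26.7% as higher and 28.4% as lower, so a change as such was common. Against WT, KI had 1 of the 10 higher (*Hyou1*), 5 lower (*Hspa5*, *Hsp90b1*, *Dnajb9*, *Dnajc3* and *Sdf2l1*) and 4 that did not pass, where 42.3% of 13534 genes passed, 21.2% higher and 21.0% lower. In KO against KI, 8 were higher in KO, 0 were lower and 2 did not pass (*Dnajb9* and *Canx*), with a background of 54.0%, 27.0% in each direction. The median log2 fold change of the 10 genes was 0.54, -0.30 and 0.90 in these comparisons, and that of all genes tested -0.03, -0.02 and 0.00. KO against WT and KI against WT share the 3 WT libraries and are not independent.

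**Figure D1:**
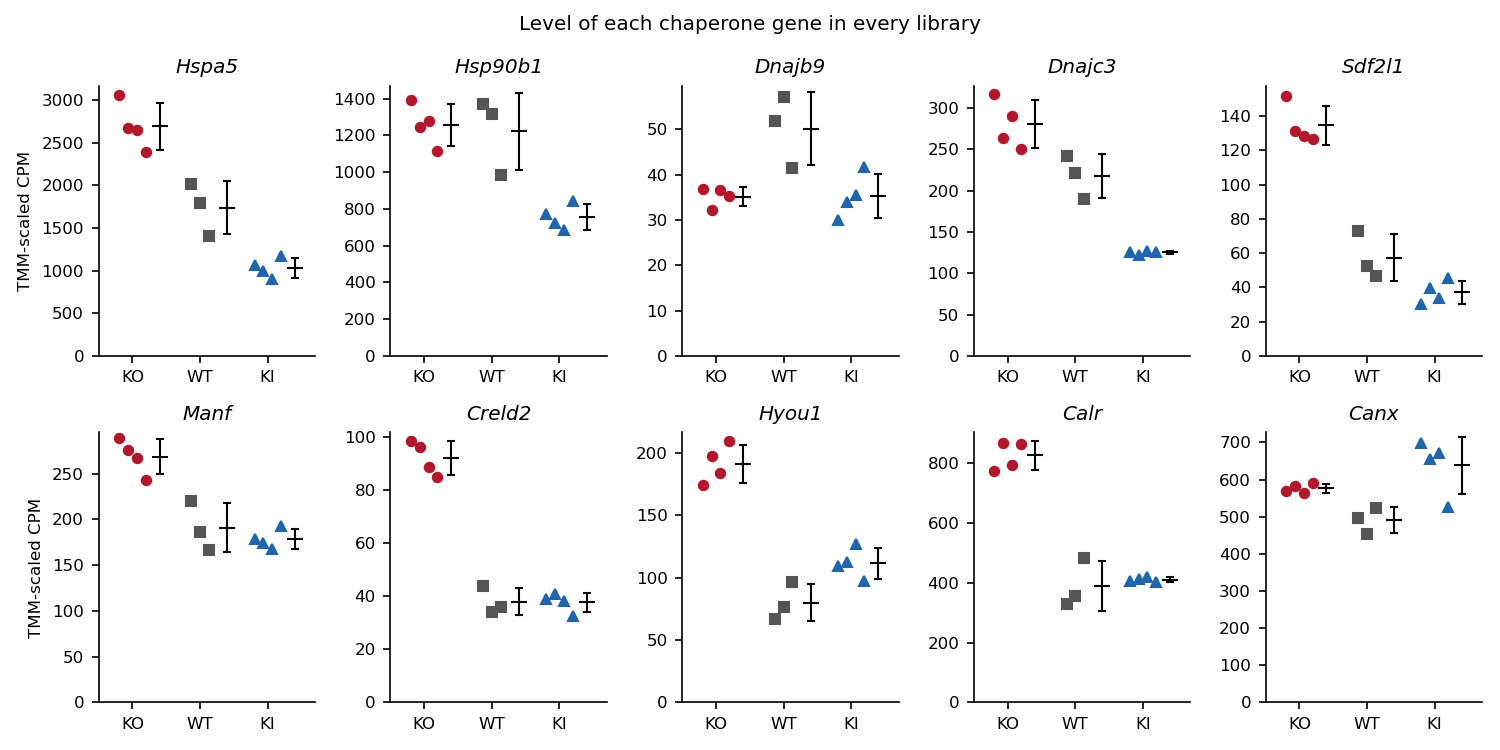
Level of each of the 10 genes (TMM-scaled CPM, linear axis from 0) in the 4 KO (circles), 3 WT (squares) and 4 KI libraries (triangles), with the group mean and SD as a bar beside the points. The KO points of *Hspa5*, *Dnajc3*, *Sdf2l1*, *Manf*, *Creld2*, *Hyou1* and *Calr* lie above all WT and KI points, and those of *Hsp90b1* overlap the WT points.

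BiP itself stepped down from KO to WT to KI. *Hspa5* (chr2:34771970-34777547, GRCm38) was at 3059, 2677, 2648 and 2393 CPM in KO 5, 6, 7 and 8, at 2023, 1789 and 1408 CPM in WT 5-6, 7 and 8, and at 1061, 998, 899 and 1167 CPM in KI 5, 6, 7 and 8. The lowest KO library was above the highest WT library, and the lowest WT library above the highest KI library. The level was 1.53-fold higher in KO than in WT (log2 fold change 0.61, SE 0.17, edgeR adjusted p = 0.0110) and 1.69-fold lower in KI than in WT (-0.76, SE 0.17, edgeR adjusted p = 0.00350). Between KO and KI the ratio was 2.62-fold (1.39, SE 0.11, edgeR adjusted p = 4.50e-08). In bulk RNA, fewer cells that express a gene and less of its RNA per cell cannot be told apart.

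*Hyou1* (chr9:44379490-44392369), which encodes GRP170, a large Hsp70-like protein and nucleotide exchange factor of BiP, did not follow this order. It was at 174, 197, 184 and 209 CPM in KO, at 67.1, 76.4 and 96.5 CPM in WT and at 109.5, 113, 127 and 97.0 CPM in KI. KO was far above the other groups, and the lowest KI value, from KI 8, cleared the highest WT value, from WT 8, by less than 1 CPM. *Hyou1* was 2.35-fold higher in KO than in WT (log2 fold change 1.23, SE 0.15, edgeR adjusted p = 5.23e-05), 1.72-fold higher in KO than in KI (0.78, SE 0.10, edgeR adjusted p = 8.55e-06) and 1.39-fold higher in KI than in WT (0.48, SE 0.16, edgeR adjusted p = 0.0259). The call in KI was lost when WT 5-6, WT 7, KI 5, KI 6 or KI 7 was left out, with log2 fold changes of 0.37 to 0.49.

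Both J-domain partners of BiP in the set were measured at very different levels and moved differently. *Dnajc3* (chr14:118937976-118981697), whose product P58IPK binds unfolded chains and delivers them to BiP, was at 317, 264, 290.3 and 251 CPM in KO, at 242, 222 and 189.9 CPM in WT and at 126, 122, 126 and 126 CPM in KI. The KI values were nearly equal and well under WT, while KO 8 was only just above WT 5-6. *Dnajc3* fell 1.74-fold in KI against WT (log2 fold change -0.80, SE 0.13, edgeR adjusted p = 0.000414) and was 2.25-fold higher in KO than in KI (1.17, SE 0.09, edgeR adjusted p = 3.15e-08). Its rise in KO against WT was 1.27-fold and close to the threshold (0.35, SE 0.14, edgeR adjusted p = 0.0492), and 9 of 15 other settings did not call it.

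*Dnajb9* (chr12:44205559-44210326) encodes ERdj4, a BiP partner that also binds IRE1 and is a known XBP1 target. Its level was 36.8, 32.2, 36.5 and 35.2 CPM in KO, 51.8, 57.2 and 41.5 CPM in WT, and 30.0, 34.1, 35.5 and 41.7 CPM in KI. KO lay wholly under WT, KI 8 slightly above the lowest WT library, WT 8, and KO and KI among each other. *Dnajb9* fell 1.45-fold in KO (log2 fold change -0.53, SE 0.14, edgeR adjusted p = 0.00716) and 1.42-fold in KI (-0.51, SE 0.16, edgeR adjusted p = 0.0208). Between KO and KI the log2 difference was -0.00 with a 95% interval from -0.23 to 0.23. With library totals as the scale neither fall was called (log2 fold changes of -0.11 and -0.17), and the fall in KI was also lost without WT 7, KI 5 or KI 6 (-0.40, -0.44 and -0.49).

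*Sdf2l1* (chr16:17130138-17132383), a partner of ERdj3 that is strongly induced in ER stress, gave the widest range of the 10. It was at 152, 132, 128 and 127 CPM in KO, at 73.1, 52.3 and 46.8 CPM in WT and at 30.2, 39.6, 33.7 and 45.4 CPM in KI. The groups did not overlap, but WT 8 and KI 8 were close. *Sdf2l1* was 2.32-fold higher in KO than in WT (log2 fold change 1.21, SE 0.16, edgeR adjusted p = 0.000105), 1.54-fold lower in KI than in WT (-0.62, SE 0.18, edgeR adjusted p = 0.0145) and 3.62-fold higher in KO than in KI (1.86, SE 0.12, edgeR adjusted p = 5.99e-09). The fall in KI was not called without WT 5-6 or KI 5 (-0.41 and -0.54), nor with library totals (-0.28).

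*Hsp90b1*, which encodes GRP94, fell in KI and did not pass the test in KO. The gene (chr10:86690209-86705509) was at 1395, 1245, 1279 and 1117 CPM in KO, at 1369, 1316 and 984 CPM in WT and at 771, 726, 683 and 845 CPM in KI. KO and WT overlapped, and KI lay below both. The log2 difference between KO and WT was 0.02 with a 95% interval from -0.33 to 0.38 (edgeR adjusted p = 0.919). Its sign changed with the setting, and scaled by library totals the difference was 0.45 and passed as higher in KO (edgeR adjusted p = 0.00676). In KI *Hsp90b1* fell 1.62-fold against WT (-0.70, SE 0.16, edgeR adjusted p = 0.00458), and it was 1.67-fold higher in KO than in KI (0.74, SE 0.10, edgeR adjusted p = 1.39e-05). Its exons overlap those of other annotated genes on both strands, and whether the counts used strand is not given in the sources used here.

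The small secreted proteins *Manf* and *Creld2* were higher in KO, with overlapping values in WT and KI. *Creld2* (chr15:88819646-88826683), a gene known to be induced in ER stress, was at 98.3, 96.0, 88.6 and 84.6 CPM in KO, at 43.6, 34.1 and 35.96 CPM in WT and at 39.0, 40.9, 38.1 and 32.6 CPM in KI. All KO values were far above the others, and those of WT and KI overlapped. It rose 2.39-fold in KO against WT (log2 fold change 1.26, SE 0.13, edgeR adjusted p = 1.70e-05) and was 2.44-fold higher in KO than in KI (1.29, SE 0.09, edgeR adjusted p = 2.66e-08). The log2 difference between KI and WT was -0.01 with a 95% interval from -0.32 to 0.30.

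*Manf* (chr9:106838312-106891979), whose product binds BiP and slows its nucleotide exchange, was at 289, 276, 267 and 243 CPM in KO, at 219.8, 187 and 166 CPM in WT and at 179, 175, 167 and 193 CPM in KI. The lowest KO value was above the highest WT value, and the KI values lay within the WT range. *Manf* was 1.39-fold higher in KO than in WT (log2 fold change 0.47, SE 0.13, edgeR adjusted p = 0.0105) and 1.51-fold higher than in KI (0.59, SE 0.08, edgeR adjusted p = 2.73e-05). For KI against WT the interval was -0.39 to 0.20. Its annotated exons, which include long readthrough transcripts, overlap *Rbm15b* and *Dcaf1*.

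Of the lectin pair, the soluble member rose in KO and the membrane-bound member did not pass. *Calr* (chr8:84841850-84846934) was at 775, 869, 794 and 866 CPM in KO, at 329, 357 and 484 CPM in WT and at 405, 414, 420.1 and 404 CPM in KI. KO was well above the rest, and the KI values fell inside the WT range. *Calr* was 2.09-fold higher in KO than in WT (log2 fold change 1.06, SE 0.16, edgeR adjusted p = 0.000242) and 2.02-fold higher than in KI (1.01, SE 0.08, edgeR adjusted p = 7.46e-08), while KI and WT differed by 0.07 with an interval from -0.26 to 0.41.

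*Canx* (chr11:50293961-50325673) was at 568, 582, 565 and 590.0 CPM in KO, at 497, 455 and 523 CPM in WT and at 697, 655, 672 and 527 CPM in KI. Every KO and every KI value was above every WT value, yet the differences were small: 0.21 in KO (95% interval -0.05 to 0.47, edgeR adjusted p = 0.160) and 0.38 in KI (0.05 to 0.70, edgeR adjusted p = 0.0609). Without WT 8 both passed the test, and without KI 8 the difference of KI from WT and that of KO from KI (-0.23, edgeR adjusted p = 0.0154) did. Scaled by library totals, *Canx* also passed as higher in KO (0.62, edgeR adjusted p = 0.00271) and in KI (0.70, edgeR adjusted p = 0.00437), and the difference of KI from WT passed with DESeq2 (0.35, adjusted p = 0.0250) and with all 3 groups in 1 edgeR fit (0.38, adjusted p = 0.0187). KO and KI differed by -0.14 (-0.34 to 0.06).

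**Figure D2:**
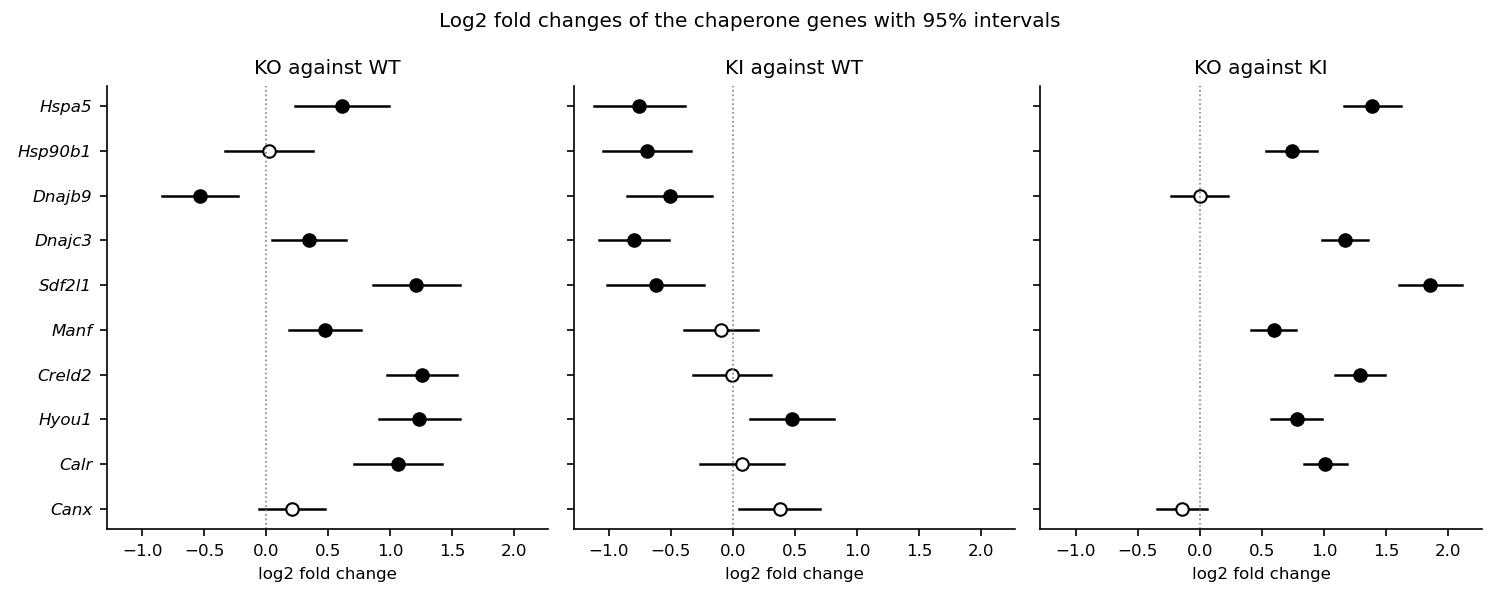
Log2 fold change (x axis) of each gene (y axis) in KO against WT, KI against WT and KO against KI, with 95% intervals as lines. Filled points passed the test at an adjusted p under 0.05 and open points did not: 8, 6 and 8 of the 10 genes are filled, and in KO against KI all filled points lie to the right of 0, from 0.59 for *Manf* to 1.86 for *Sdf2l1*.

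Counting values alone, 9 of the 10 genes did not overlap between KO and WT (8 higher and 1 lower in KO), against 55.3% of all genes tested. Between KI and WT the count was 6 (2 higher and 4 lower, 44.7% of all genes), and between KO and KI 8, all higher in KO (48.6%). Set beside the ERSE shown above, of the 6 genes with a match, *Hspa5*, *Dnajc3*, *Creld2* and *Calr* rose in KO against WT and *Hsp90b1* and *Canx* did not pass, and of the 2 without, *Sdf2l1* rose and *Dnajb9* fell. Of all genes tested, 26.7% rose in KO against WT. Scaled by library totals all 6 passed as higher, as did *Sdf2l1*, and *Dnajb9* did not pass. With that scaling 5675 of all 13359 genes tested passed as higher, so such a call was common. In KO against KI with TMM, 5 of the 6, all but *Canx*, were higher in KO, as was *Sdf2l1*, against 27.0% of all genes tested.

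The scaling bears on the directions. Scaled by library totals only, all genes had a median of 0.38 on the log2 scale in KO against WT, instead of -0.03. Of the calls, 72.8% were higher, instead of 48.5%. Of all 13359 genes tested, 5675 then passed as higher and 2124 as lower. Of the 10 genes, 9, all but *Dnajb9*, passed as higher and 0 as lower. *Hsp90b1* at 0.45 was then close to the median of all genes, and *Canx* at 0.62 above it. The median of KI against WT became 0.30 instead of -0.02 and the higher calls 76.3% instead of 50.2%, with 2 of the 10 higher and 3 lower. Of all 13534 genes tested there, 4620 passed as higher and 1438 as lower. In KO against KI the median was 0.06, and the same 8 higher and 0 lower were counted. Of all 13269 genes tested there, 3937 passed as higher and 3078 as lower.

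**Figure D3:**
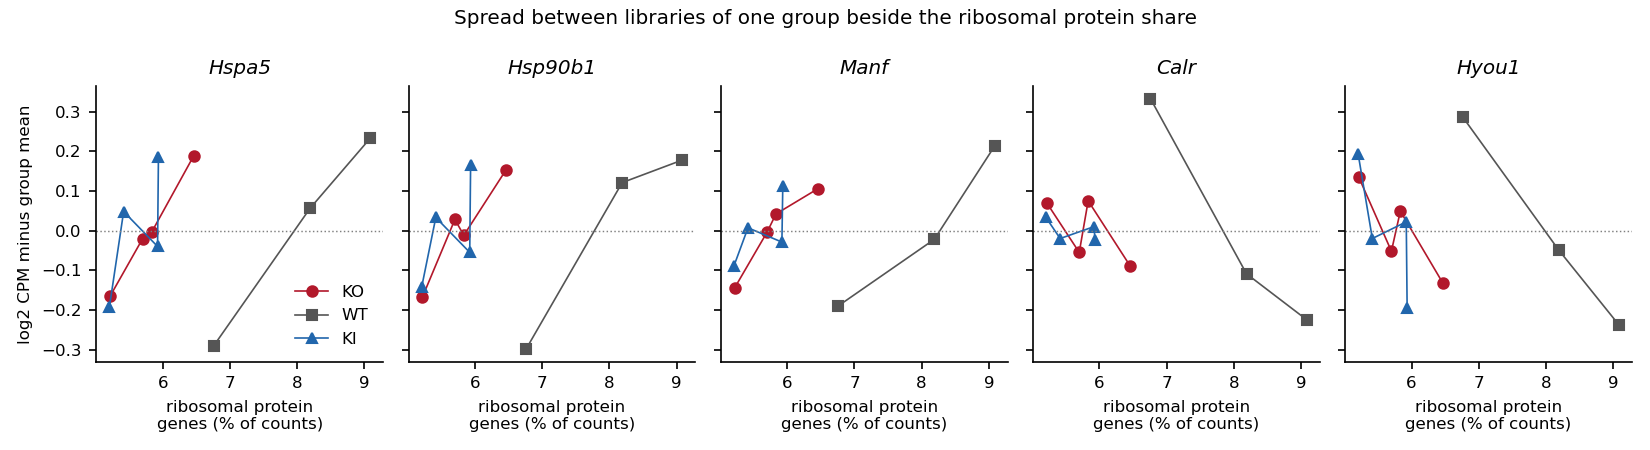
Deviation of each library from its group mean (log2 CPM, y axis) beside the share of counts in ribosomal protein genes (percent, x axis), for 5 of the genes, with lines joining the libraries of a group in order of that share. In the 3 groups *Hspa5*, *Hsp90b1* and *Manf* are lowest in the library with the lowest share and *Hyou1* is highest there.

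Within each group the 10 genes did not spread together from library to library. *Hspa5*, *Hsp90b1* and *Manf* were lowest in the library with the lowest ribosomal protein share and highest in the one with the highest share in 3 of 3 groups. *Hyou1* had the opposite order in 3 of 3 groups, and *Calr* was lowest in the library with the highest share in 3 of 3 and highest in that with the lowest share in 2 of 3. So WT 8, with the lowest share of the WT libraries, had the lowest *Hspa5* (1408 CPM) and the highest *Hyou1* (96.5 CPM) of the group. In KI the highest share was a near tie, 5.933% in KI 8 and 5.92% in KI 6. KI 6 had *Hspa5*, *Hsp90b1* and *Manf* slightly below the group mean (-0.040, -0.055 and -0.029 on the log2 scale) and *Hyou1* slightly above it (0.022). How many of all genes have such an order was not counted. The part of this composition in the differences between groups was not tested, and the ribosomal share was itself lower in every KO and KI library than in every WT library.

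Compared per length of the principal transcript, the order of levels was led by the same 4 genes in each group, and so it was per length of all annotated exons. In WT, *Hspa5* was at 474 ± 84.5 CPM per kilobase (SD, n = 3) and *Hsp90b1* at 433 ± 73.9, with overlapping ranges, followed by *Calr* at 179 ± 38.0 and *Canx* at 115 ± 8.10. At the low end *Dnajb9* (20.4 ± 3.25) and *Hyou1* (17.8 ± 3.35) overlapped. In KO, *Hspa5* was at 734 ± 74.7 CPM per kilobase (SD, n = 4) and no longer overlapped *Hsp90b1* at 446 ± 40.5, which overlapped *Calr* at 378 ± 22.1. *Hyou1* there was at 42.6 ± 3.41, above *Dnajb9*, the lowest at 14.3 ± 0.864. *Sdf2l1* stood at 121 ± 10.4, overlapping *Canx* (135 ± 2.77) and *Manf* (119.6 ± 8.69), while in WT it was below *Manf* without overlap (51.8 ± 12.5 and 85.0 ± 12.0). In KI, *Hspa5* (281 ± 30.6, n = 4) and *Hsp90b1* (268 ± 24.6) overlapped again, and *Dnajc3* (24.4 ± 0.412) and *Hyou1* (24.9 ± 2.74) did as well. Several of these neighbours depend on the length used. Per kilobase of all annotated exons, *Hyou1* had mean levels of 26.4 CPM in KO, 11.1 in WT and 15.4 in KI, beside 13.8, 19.7 and 13.9 for *Dnajb9* and 24.4 in KI for *Dnajc3*. *Manf* then stood at 76.2 CPM in KO and 54.2 in WT, beside 121 and 51.8 for *Sdf2l1*.

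Other genes of the same pathway were counted in the same way, without a test between lists. These counts come from the TMM-scaled fits and were not recomputed with library totals or other settings. Of 21 tested ER folding partners and paralogs, 6 rose and 6 fell in KO against WT. *Dnajb11*, which encodes ERdj3, the J-domain partner of SDF2L1, rose from 61.9 ± 6.87 to 134 ± 8.00 CPM (SD, n = 3 WT and 4 KO, log2 fold change 1.09, edgeR adjusted p = 3.79e-05), and *Mesd*, a chaperone of lipoprotein receptors, rose by 1.30. *Sdf2*, the paralog of *Sdf2l1*, fell by 1.40 on the log2 scale (edgeR adjusted p = 0.000150), opposite to *Sdf2l1*, and *Sil1*, another nucleotide exchange factor of BiP, fell by 1.10, opposite to *Hyou1*. Of the same 21 genes, 3 rose and 7 fell in KI against WT, and in KO against KI 9 were higher and 4 lower.

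Of the 11 protein disulfide isomerases and oxidases, *Txndc5* among them, 5 rose and 6 fell in KO against WT, where *Ero1a*, an oxidase that recharges them, fell from 532 ± 11.3 to 104 ± 11.6 CPM (log2 fold change -2.38, edgeR adjusted p = 2.39e-07) and its paralog *Ero1b* rose by 1.17. *Ero1a* was also lower in KI (133 ± 18.4 CPM, edgeR adjusted p = 1.19e-06). The KI had 1 of 11 higher and 4 lower than WT, and in KO against KI 6 were higher and 3 lower. Among the calls in KO against WT, the rise of *Erp44* and the falls of *Pdia6* and *Txndc12* were just under the threshold (edgeR adjusted p = 0.0483, 0.0491 and 0.0497).

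Of 16 UPR sensors and factors, 5 rose and 2 fell in KO against WT. *Trib3* and *Chac1*, targets of the PERK and ATF4 branch, rose by 1.94 and 1.97 on the log2 scale (edgeR adjusted p = 2.20e-06 and 2.16e-05), whereas *Xbp1* fell from 321 ± 45.1 to 208 ± 24.0 CPM (-0.65, edgeR adjusted p = 0.00266). The table holds no splice forms, so spliced and unspliced *Xbp1* were not separated. In KI against WT 1 rose and 5 fell, *Trib3* by 1.12, and in KO against KI 7 were higher and 1 lower. Of 15 tested genes of ER-associated degradation, 8 rose and 3 fell in KO against WT and 10 were higher and 3 lower in KO against KI, with *Herpud1* at 396 ± 12.1 CPM in KO and 136 ± 13.96 in KI (log2 fold change 1.54, edgeR adjusted p = 2.10e-09) and *Edem1* at 118 ± 2.99 and 54.3 ± 1.82 (1.12, edgeR adjusted p = 1.39e-08). In KI against WT the count was 3 higher and 4 lower. Among the calls in KO against WT, the rise of *Syvn1* and the fall of *Edem2* were just under the threshold (edgeR adjusted p = 0.049999 and 0.049966).

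Of the 19 cytosolic chaperones, 7 rose and 6 fell in KO against WT, and 3 rose and 2 fell in KI against WT. *Hsp90aa1*, the cytosolic relative of *Hsp90b1*, fell by 1.21 on the log2 scale in KO (edgeR adjusted p = 0.000295), and *Hspa1b*, an inducible relative of *Hspa5*, rose by 1.60. Of 9 mitochondrial chaperones and proteases, 4 rose and 1 fell in KO against WT, and 2 rose and 0 fell in KI against WT. In KO against KI the cytosolic list had 6 higher and 8 lower, and the mitochondrial list 3 and 1.

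**Figure D4:**
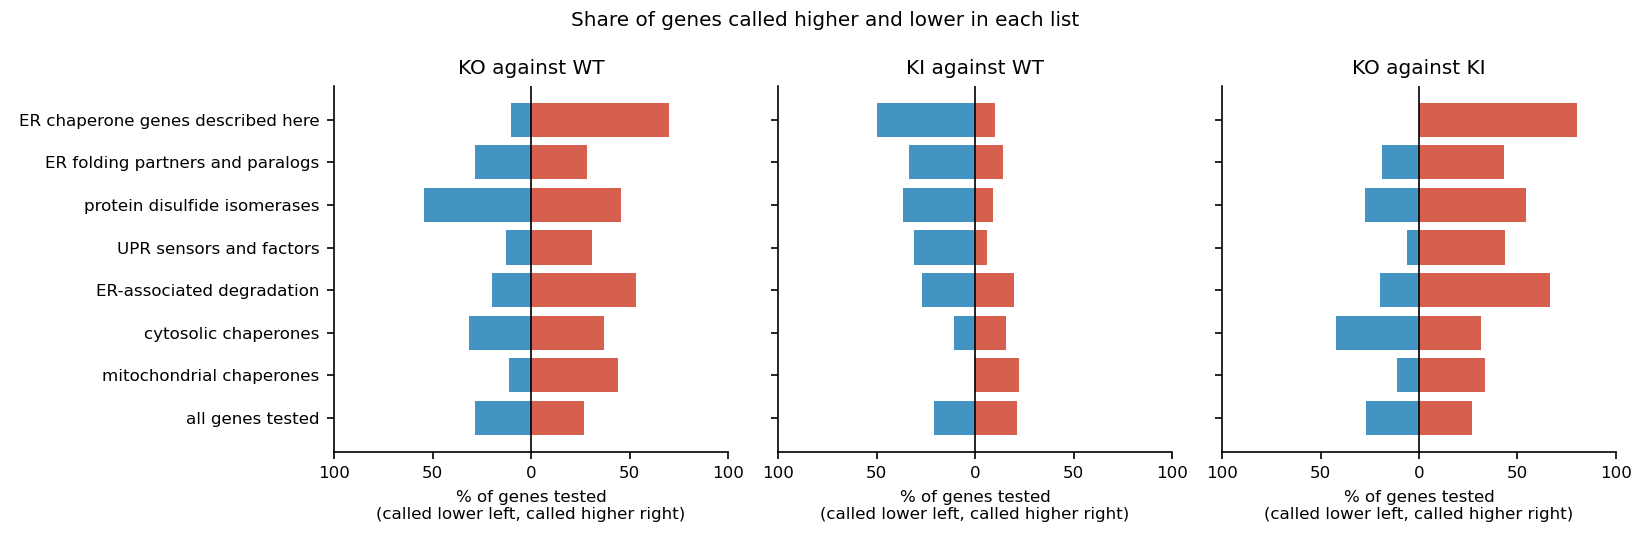
Percent of the tested genes of each list called higher (right) and lower (left) in KO against WT, KI against WT and KO against KI, beside all genes tested. For the 10 genes described here the higher share is 70% in KO against WT and 80% in KO against KI, and the lower share 50% in KI against WT.

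The place of the genes was set beside their change, with the median of all tested genes on the same chromosome. In KO against WT, the 373 tested genes of chromosome 16, where *Sdf2l1* lies, had a median log2 fold change of 0.49, and the 963 of chromosome 2, where *Hspa5* lies, one of 0.27. The medians were -0.35 on chromosome 12 (*Dnajb9*), -0.36 on chromosome 14 (*Dnajc3*) and -0.34 on chromosome 11 (*Canx*), and between -0.06 and 0.07 on the chromosomes of the other 5 genes. In KI against WT the median of chromosome 14 was -0.38, beside the fall of *Dnajc3* by 0.80. In KO against KI the median was 0.50 on chromosome 16, beside 1.86 for *Sdf2l1*, and 0.39 on chromosome 2, beside 1.39 for *Hspa5*. It was 0.12 on chromosome 14, -0.42 on chromosome 12 and between -0.27 and -0.06 on the chromosomes of the other genes. The part of these medians in the changes was not tested.

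Across the 11 libraries the profile of *Sdf2l1* was the most like the mean standardised profile of the 10 genes (Pearson r = 0.99), and *Dnajb9* and *Canx* the least like it (-0.14 and -0.18). That mean includes the gene compared with it. The libraries fall into 3 groups that differ, so such values mostly describe the group differences. *Dnajc3* was the member most like *Hspa5* (0.98), and *Dnajb9* and *Canx* ran most opposite to each other (-0.89). Of all other genes, *Tnfaip8l1* (0.987), *Eid2* (0.985), *Parn* and *Tango2* (0.983 each) and *Rbm43* (0.982) were the most like *Hspa5*. *Zfp422* and *Kyat3* (0.997 each), *Lrrc26* (0.994), *Apoh* (0.993) and *Ces2a* (0.992) were the most like the mean profile. Some of them were near the floor in KI, with mean levels of 0 CPM for *Lrrc26*, 0.0152 for *Ces2a*, 0.0228 for *Eid2* and 0.67 for *Apoh*.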

How the data were processed

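The authors deposited 1 table of whole-number read counts per gene, not normalized, made by their sequencing provider. The submitters' processing notes name HISAT2, TopHat2, Bowtie2 and StringTie without roles. The genome build, the counter and the use of strand are not given in the sources used here. Of 26472 lines, 10 with broken fields were left out, and counts were summed by gene name. Another 11 per-sample columns of FPKM (decimal points lost) and 9 columns of the authors' own comparisons (fold changes and p-values) were not used. Genes were filtered by edgeR's filterByExpr, scaled by TMM and compared by the quasi-likelihood F test of edgeR (edgeR 4.0.16, R 4.3.3, prior count 2) on the libraries of the 2 groups compared, with Benjamini-Hochberg adjustment over all genes tested and a threshold of 0.05. Alternatives used DESeq2 1.42.0 and limma 3.58.1. Printed CPM use TMM factors over all 11 libraries. The scripts recovered known changes when tested on simulated counts, where recovery was asked for only at the larger changes. Those counts had few changed genes and the same composition in all libraries, so they did not cover the composition differences seen here. Replicates of a group differed by more than counting noise. Gene places and transcript lengths come from GENCODE M21 (GRCm38), matched by name. The 10 genes and the other lists were chosen with earlier results of these data known. Named are the 10 genes, *Txndc5*, of each other list up to 2 called genes with the largest rise and 2 with the largest fall, and the 5 genes most like *Hspa5* and the 5 most like the mean profile, of which some list genes are printed. Figures were drawn with matplotlib 3.10.9 in Python 3.11.15.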

Additional observations from a re-analysis of the deposited data

Results flagged for a closer look

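Of 20 groups of 4 libraries examined (10 genes in KO and in KI), 1 had a library set apart from the others, and chance gives about 1 in 20: for *Dnajc3* in KI, KI 6 lay at 122 CPM (4426 counts) against 126 CPM in the other 3, and the gap made up 0.931 of the range, above the critical ratio of 0.829. The range itself was small. In 3 genes KO and KI moved to opposite sides of WT. They were picked by a rule that asked for a call in all 3 comparisons, so a call of KO against KI was a condition and adds nothing. The log2 difference of KO and KI was 1.39 for *Hspa5*, 1.17 for *Dnajc3* and 1.86 for *Sdf2l1*. In other settings the rise of *Dnajc3* in KO was lost in 9 of 15, and the fall of *Sdf2l1* in KI in 3 of 15.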

How the results depend on the processing

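The 30 gene comparisons were repeated under 8 alternatives each (DESeq2, its size factors in edgeR, library totals, no filter on low counts, limma voom, all 3 groups in 1 fit, newly assembled entries left out, replicate block) and without each library in turn. Of 460 recomputed values, 409 kept direction and side of the threshold, 23 lost a call, 9 gained one and 19 changed sign, the last only in comparisons that were not called; 17 of the 30 comparisons kept both throughout. The sign changes were as follows. *Hsp90b1* in KO against WT: -0.000579 (DESeq2), -0.000586 (its size factors) and -0.0134 (entries left out), and -0.0847 to 0.133 without single libraries, while library totals gave 0.451 and a call. *Manf* in KI against WT: 0.244 (library totals), and -0.188 to 0.0169 without single libraries. *Creld2* in KI against WT: 0.33 (library totals), 0.00426 (no filter), and -0.0794 to 0.105 without single libraries. *Calr* in KI against WT: -0.0331 to 0.261 without single libraries. *Dnajb9* in KO against KI: 0.0598 (library totals), 0.000188 (no filter), 0.00874 (limma voom), 0.00569 (replicate block), and -0.0737 to 0.0775 without single libraries. The cause was not tested. In KI against WT, 3 to 7 of the 10 genes were called without single libraries, the fewest without KI 5, against 6 with all. Same-numbered libraries did not vary together throughout (correlation across genes of deviations from the group means from -0.38 to 0.50), so the numbers were not taken as pairs. The highest values were those of KO 8 with WT 8 (0.50) and KO 5 with WT 5-6 (0.44). KO 6 with WT 5-6 (-0.11) and KO 7 with WT 7 (0.07) were low. Whether some KO and WT libraries share a batch was not tested. With the replicate block, 8183 genes were called in KO against WT (8 of the 10), 4891 in KI against WT (5, *Dnajb9* lost, edgeR adjusted p = 0.0515) and 6453 in KO against KI (8). At 845 counts or more per gene, the spread between libraries and not counting error limits precision.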

Other observations

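Outside the 10 genes, 10 tested genes in KO against WT have an exact ERSE in the same promoter window. This set was chosen after values were seen and is given as values only: 4 rose, 2 fell and 4 did not pass, with a median log2 fold change of 0.05, and in KO against KI 6 of 10 were higher and 3 lower, with a median of 0.52. In KI against WT 11 were tested, of which 2 rose, 2 fell and 7 did not pass, with a median of -0.04. The largest change in KO against WT was that of *Acnat2*, from 0.288 ± 0.251 CPM in WT (SD, n = 3) to 6.67 ± 0.826 in KO (n = 4), a log2 fold change of 4.20 (edgeR adjusted p = 4.56e-05). Only the genes of this set that are also on the lists counted above are given next, and other genes of the set may act in the ER too. *Ero1b*, an ER oxidase, rose from 5.49 ± 2.74 CPM in WT (SD, n = 3) to 12.7 ± 1.88 in KO (n = 4). *Syvn1*, the ubiquitin ligase of ER-associated degradation, was at 48.9 ± 6.15 CPM in WT, 62.7 ± 6.50 in KO and 35.8 ± 3.37 in KI. *Pdia6*, a disulfide isomerase, was lower in KO (352 ± 43.1 CPM) and in KI (259 ± 27.8) than in WT (464 ± 95.2), at edgeR adjusted p-values of 0.0491 and 0.00144. The edgeR adjusted p of *Syvn1* in KO against WT was just under the threshold.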
